A study of Homo sapiens with 24 samples.

Results

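Cells labelled SKBR3, a human breast cancer line with many extra copies of the ERBB2 gene, were compared between a knockdown of PMCA2 and a knockdown of HER2, in a series about how the calcium pump PMCA2 bears on the receptor HER2. The comparison holds 12 of the series' 24 arrays, chosen by their source names: 6 labelled SKBR3 PMCA2 kd and 6 labelled SKBR3HER2 kd. It spans 12469 genes, each read by the probe with the highest mean over the 24 arrays. Another 6 arrays of control SKBR3 cells give the level beside each gene and are not tested against, and with 6 arrays of an NHERF1 knockdown they add to the estimate of the spread between arrays. The labels give every group, the control too, 48 h of infection with shRNA lentiviral particles, and name neither the hairpins nor any selection of infected cells or single clone. They name no separate cultures either, so a p-value here reflects how far arrays of a group vary, and that variation may be technical.

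HER2 is a receptor tyrosine kinase that pairs with the other ERBB receptors and signals through the ERK and PI3K pathways, and extra copies of its gene mark a class of breast cancers. PMCA2, encoded by ATP2B2, uses ATP to pump calcium out of the cell, and in the lactating breast it moves calcium into milk. Calcium that stays in the cell acts through calmodulin, the phosphatase calcineurin and the CaM kinases.

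The values are log2 intensities after background correction, and where 3 are given for a group they are the lowest, the median and the highest of its 6 arrays. A probe counts as above the floor on an array where its deposited intensity is over 106, which 95% of olfactory receptor probes do not reach. Each group has 3 arrays on each of 2 chips and its own positions on them, so position and group cannot be told apart. Arrays of the same knockdown correlated across genes with a median r between 0.9959 and 0.9963, and a PMCA2 with a HER2 knockdown array with a median r of 0.9713. A knockdown with a control array gave 0.9161 for PMCA2 and 0.9189 for HER2, so both knockdowns stood further from control than from each other. Of 14 markers of SKBR3 and luminal cells, 9 were above the floor on all 6 arrays in the PMCA2 and also in the HER2 knockdown, against 12 in control. SPDEF, AZGP1 and SCGB2A2, a transcription factor and a pair of secreted products of luminal cells, were below the floor on all arrays of both knockdowns and above it on all 6 control arrays. MLPH was above it on 1 PMCA2 knockdown array, 5 HER2 knockdown arrays and 6 control arrays. GATA3, of the same 14 markers, went the other way, above the floor on all 6 arrays of each knockdown and on 2 control arrays. Genes of whole chromosomes also leaned one way between the 2 knockdowns, as described at the end. Whether the groups hold cells of the same line was not tested, and this bears on every difference given here. The groups are thus called by their labels, and in bulk RNA fewer cells of a type and less RNA per cell cannot be told apart.

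The targeted genes did not tell the 2 knockdowns apart. ERBB2 read 12.71, 12.80 and 12.86 on the PMCA2 knockdown arrays, against 12.81, 12.86 and 12.89 on the HER2 knockdown arrays and 13.72, 13.77 and 13.80 on the control arrays. The knockdown arrays overlapped, both groups lay below every control array, and the difference did not pass (log2 -0.067, SE 0.043, limma adjusted p = 0.198). All 3 ATP2B2 probes were below the floor on every array of the PMCA2 knockdown, the HER2 knockdown and the control, so the PMCA2 label has no check in these data. Of the other plasma membrane pumps, ATP2B4 was 1.73-fold higher in the PMCA2 knockdown (log2 9.48, 9.50 and 9.65, against 8.59, 8.74 and 8.89 in the HER2 knockdown and 7.0, 7.18 and 7.40 in control), with no overlap of the arrays. ATP2B1 was lower (log2 -0.37, SE 0.10, limma adjusted p = 0.00336), though on chip 1 alone it did not pass. NHERF1, the PDZ scaffold targeted in the knockdown left out here, was 1.16-fold lower (log2 -0.22, SE 0.051). It read 10.88, 11.10 and 11.21 in the PMCA2 knockdown, 11.17, 11.30 and 11.31 in the HER2 knockdown and 11.88, 11.94 and 12.00 in control. As for ERBB2, both knockdowns lay below every control array.

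Among the 7 tested ERBB receptors, ligands and regulators, 2 were higher and 2 lower. Over all 12469 genes, 26.4% were called higher and 28.8% lower (limma, Benjamini-Hochberg adjusted p under 0.05), so this count is close to the background. The counts of the lists below are to be read beside these shares. ERRFI1, a feedback inhibitor of ERBB kinases, was 1.57-fold higher in the PMCA2 knockdown (log2 0.65, SE 0.057), as was NRG4, a ligand of ERBB4, by log2 0.26 close to the floor. HBEGF, a ligand of EGFR, was 1.45-fold lower (log2 -0.54, SE 0.07). ERBB3 had log2 -0.29, SE 0.049, but 2 further probes of it ran the other way (0.22 and 0.45), so its direction is not settled. EGFR did not pass (log2 0.053, SE 0.044, limma adjusted p = 0.32). Its 2 further probes gave -0.0014 and 0.55, and the mean of all its probes gave 0.20, which passed (limma adjusted p = 0.000812). The adaptor GRB7, a neighbour of ERBB2 in the 17q12 amplicon, stood out from the 16 tested genes of that region after their values were seen. It read 10.57, 10.61 and 10.74 on the PMCA2 knockdown arrays, against 9.47, 9.56 and 9.69 on the HER2 knockdown arrays and 10.67, 10.78 and 10.81 on the control arrays, 2.09-fold higher with PMCA2 knocked down, while 9 of the 16 genes did not pass and the difference of ERBB2 was -0.067.

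Across the genome the 2 knockdowns differed in many genes by small amounts. Of 12469 genes, 6889 were called (55.2%), 3293 higher in the PMCA2 knockdown and 3596 lower, with a median size of difference of 0.19 in log2 and a median SE of 0.069. At 1.5-fold or more, 1620 genes were called (13%), 906 higher (7.27%) and 714 lower (5.73%). At 2-fold or more, 576 genes were called (4.62%), 360 higher (2.89%) and 216 lower (1.73%), but this last count depends on the background correction, with 146 higher and 61 lower when none is applied. Within chip 1 the fit called 5102 genes and within chip 2 it called 5535. Of the 6889 genes, 4940 were called in the same direction on chip 1 alone and 5311 on chip 2 alone, and 0 in the opposite direction on either. The 3 arrays per group of a chip are among those that made the 6889 calls, so this is not an independent check. In 4261 genes (34.2%) the arrays of the 2 groups did not overlap. Another measure is presence: 89 genes (0.714%) were above the floor on all 6 PMCA2 knockdown arrays and on 0 HER2 knockdown arrays, and 52 (0.417%) the other way round.

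**Figure D1:**
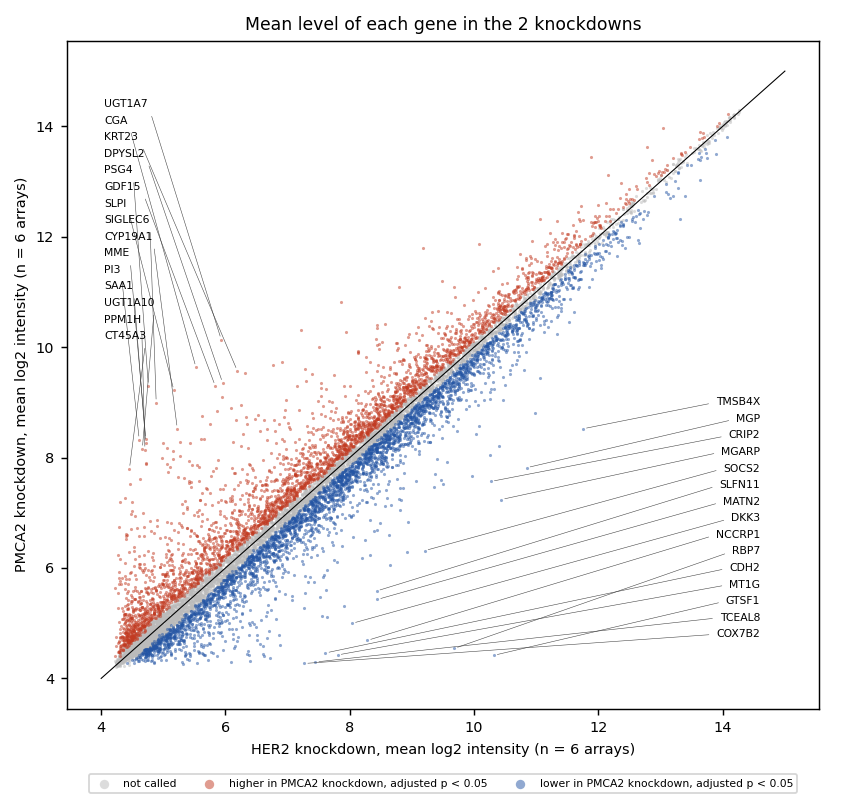
Each point is a gene, with its mean log2 intensity over 6 arrays in the HER2 knockdown on the x axis and in the PMCA2 knockdown on the y axis; red and blue mark genes called higher and lower in the PMCA2 knockdown, and the line marks equal levels. The labelled genes are the 15 with the largest differences in each direction, and they reach log2 4.54 for PSG4 above the line and -5.90 for GTSF1 below it.

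Genes of the placenta led the differences towards the PMCA2 knockdown. Pregnancy-specific glycoproteins, secreted by the syncytiotrophoblast and known to bind TGF-beta, were higher in 7 of 7 tested members at 1.5-fold or more. Their median was 1.46 in log2 (1.51 on chip 1, 1.47 on chip 2) against -0.01 over all genes. The list named 10 members, and only those with a probe above the floor on at least 6 arrays were tested. PSG2, PSG9, PSG5 and PSG6 were above it on 0 HER2 knockdown arrays and at most 2 control arrays. Among the groups shown, they passed this filter mainly through the PMCA2 knockdown, which favours a higher call. The 7 of 7 thus does not describe the whole family. PSG4 read 9.16, 9.32 and 9.35 on the PMCA2 knockdown arrays, against 4.51, 4.73 and 5.12 on the HER2 knockdown arrays and 7.53, 7.65 and 7.84 on the control arrays. The 6 PMCA2 knockdown arrays lay above every control array and the 6 HER2 knockdown arrays below every one, and PSG4 was above the floor on 3 of the HER2 knockdown arrays. Its fitted difference was log2 4.54 (SE 0.09, limma adjusted p = 2.83e-24), and its 2 further probes gave 2.17 and 2.89. PSG6, PSG3, PSG7, PSG5, PSG9 and PSG2 were below the floor on all HER2 knockdown arrays and above it on all PMCA2 knockdown arrays. Only bounds can be given for them: at least 5.81-fold for PSG6, 3.82-fold for PSG3, 2.17-fold for PSG7, 2.08-fold for PSG5, 1.99-fold for PSG9 and 1.87-fold for PSG2. A bound sets the brighter group's mean against the lowest signal of probes above the floor. These genes are near-identical copies, and one transcript may be read by probes of several.

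The likeness of the copies shows in the 250 bases before the start of PSG4 (chr19:43205639-43205888, minus strand) and of PSG3 (chr19:42740482-42740731, minus strand), from RefSeq, build GRCh38.p14. Capitals mark the longest run that both share, 71 bases.
PSG4: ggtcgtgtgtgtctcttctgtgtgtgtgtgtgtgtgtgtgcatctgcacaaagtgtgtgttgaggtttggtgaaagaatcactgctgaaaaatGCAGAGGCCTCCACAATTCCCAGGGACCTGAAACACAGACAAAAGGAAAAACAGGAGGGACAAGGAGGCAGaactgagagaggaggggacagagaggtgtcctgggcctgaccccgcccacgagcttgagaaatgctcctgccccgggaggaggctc
PSG3: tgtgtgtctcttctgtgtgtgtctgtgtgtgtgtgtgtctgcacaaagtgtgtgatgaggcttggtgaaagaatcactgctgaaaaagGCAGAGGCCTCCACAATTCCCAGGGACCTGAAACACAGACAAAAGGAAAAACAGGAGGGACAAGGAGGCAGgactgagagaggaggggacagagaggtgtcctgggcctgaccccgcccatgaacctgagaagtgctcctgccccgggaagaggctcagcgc

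Other placental genes were higher too, but not all of them. Of 26 tested trophoblast and placental genes, 13 were higher and 5 lower, with a median of 0.19 in log2 (0.15 on chip 1, 0.18 on chip 2). CGA, the alpha subunit shared by chorionic gonadotropin and the pituitary glycoprotein hormones, read 9.43, 9.62 and 9.88 on the PMCA2 knockdown arrays, against 5.26, 5.52 and 5.76 on the HER2 knockdown arrays and 5.00, 5.18 and 5.56 on the control arrays. The PMCA2 knockdown arrays stood apart from both other groups, which lay close to each other, and the difference was 17.2-fold (log2 4.11, SE 0.11). CYP19A1, the aromatase that makes estrogens, read 8.42, 8.51 and 8.62 with PMCA2 knocked down, against 4.89, 5.21 and 5.57 with HER2 knocked down and 4.36, 4.38 and 4.57 in control. It was 9.83-fold higher, with further probes at 0.15 and 2.49. ERVW-1, the retroviral envelope gene syncytin-1 that fuses trophoblast cells, read 8.72, 8.92 and 9.14 with PMCA2 knocked down, against 5.88, 6.10 and 6.27 with HER2 knocked down and 4.39, 4.58 and 4.68 in control. Both knockdowns lay above control, the PMCA2 knockdown 7.05-fold above the HER2 knockdown. HSD3B1, a placental enzyme of steroid synthesis, was 4.91-fold higher (log2 2.30, SE 0.053) and below the floor on all control arrays. Named after their values were seen, CYP11A1, which makes the first step from cholesterol to steroids, had log2 2.50, SE 0.08. The growth factor PGF had log2 3.18, SE 0.11, and GCM1, the transcription factor of syncytial fusion, had log2 1.86, SE 0.086.

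CGB5, a beta subunit of chorionic gonadotropin, stayed near the floor, above it on 5 PMCA2 knockdown arrays and 2 HER2 knockdown arrays (log2 0.32). Other placental genes were lower. PAGE4 was at least 1.97-fold lower, PLAC9 1.47-fold lower and PLAC8 1.24-fold lower, and the trophoblast transcription factor TFAP2C differed by -0.18. PLAC9 and PLAC8 lay far above control in both knockdowns. The means of PLAC9 were 10.87 in the PMCA2 knockdown, 11.43 in the HER2 knockdown and 4.67 in control. Those of PLAC8 were 11.48, 11.79 and 5.93. SIGLEC6, a sialic acid lectin of trophoblast and B cells, was among the largest differences. It read 8.88, 8.98 and 9.12 on the PMCA2 knockdown arrays, against 4.76, 4.84 and 5.14 on the HER2 knockdown arrays and 4.30, 4.50 and 4.61 on the control arrays, and was 17.2-fold higher. Over 8 trophoblast markers, intensities were summed as deposited, on a linear scale with the background left in. The median probe of an array read 102.9 on that scale, so background makes up part of each sum. The sum was 4772 to 5294 across the PMCA2 knockdown arrays, 1263 to 1378 across the HER2 knockdown arrays and 992 to 1053 across the control arrays. CSH1, placental lactogen, was above the floor on 2, 0 and 0 arrays in the same order. The part of other cell types in these differences was not tested.

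CGA is given with the 250 bases before its start (chr6:87095107-87095356, minus strand, RefSeq, build GRCh38.p14), because its promoter holds a well-known pair of cyclic AMP response elements. Capitals mark the letters TGACGTCA, which read the same on both strands and occur 2 times here. At least 1 match is in 1.65% of 35116 promoter windows of this length and at least 2 in 0.0541%. A match describes the sequence and is not evidence of binding in these cells.
CGA: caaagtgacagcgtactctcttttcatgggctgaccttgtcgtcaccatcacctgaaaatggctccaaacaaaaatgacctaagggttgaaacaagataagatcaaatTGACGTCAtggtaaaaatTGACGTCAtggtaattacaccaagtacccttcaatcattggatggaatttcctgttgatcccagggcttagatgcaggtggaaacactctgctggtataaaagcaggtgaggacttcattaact

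Of 29 tested genes of NF-kB signalling, cytokines and the acute phase, 18 were higher and 1 lower, with a median of 0.33 (0.40 on chip 1, 0.35 on chip 2). SAA1, an acute-phase apolipoprotein, read 8.07, 8.28 and 8.44 on the PMCA2 knockdown arrays, against 4.50, 4.77 and 4.90 on the HER2 knockdown arrays and 5.29, 5.46 and 5.67 on the control arrays. In the HER2 knockdown 4 of 6 arrays exceeded the floor, and the difference was log2 3.55, although its further probes gave 0.44 and 2.15. IL32, a proinflammatory cytokine, was 4.09-fold higher (log2 2.03, SE 0.08), and the iron-binding lipocalin LCN2 was at least 3.13-fold higher. CCL5, a chemokine that draws T cells, read 11.07, 11.21 and 11.29 with PMCA2 knocked down, against 9.27, 9.47 and 9.75 with HER2 knocked down and 6.15, 6.21 and 6.31 in control, so that both knockdowns lay above control and the PMCA2 knockdown highest. REL, an NF-kB subunit, was the 1 lower gene (log2 -0.30, SE 0.11), a call lost on chip 2 alone and without replicate 1 of the HER2 knockdown (log2 -0.24, limma adjusted p = 0.0629). Named after their values were seen, IL6 and IL1B had log2 1.23 and 1.29, while the NF-kB subunit RELA had 0.022 and did not pass.

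Outside the list, the protease inhibitors SLPI and PI3 (elafin), both antimicrobial proteins of mucosal epithelia, were among the 15 largest differences. SLPI read 9.15, 9.21 and 9.30 on the PMCA2 knockdown arrays, against 4.95, 5.15 and 5.37 on the HER2 knockdown arrays and 8.46, 8.76 and 8.88 on the control arrays. It was 16.5-fold higher with PMCA2 than with HER2 knocked down, and all PMCA2 knockdown arrays lay above control. PI3 read 8.22, 8.31 and 8.43 on the PMCA2 knockdown arrays, against 4.40, 4.64 and 4.74 on the HER2 knockdown arrays and 5.83, 5.93 and 6.25 on the control arrays, at least 12.5-fold higher. GDF15, a stress-induced cytokine of the TGF-beta family, read 9.23, 9.26 and 9.38 on the PMCA2 knockdown arrays, against 5.71, 5.81 and 6.01 on the HER2 knockdown arrays and 8.04, 8.13 and 8.28 on the control arrays. Its difference of 11-fold placed the HER2 knockdown far below both other groups.

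The S100 proteins, small calcium sensors, were higher in 11 of 14 tested members and lower in 1, with a median of 0.69 (0.62 on chip 1, 0.76 on chip 2). S100P, which is high in many carcinomas and in placenta, read 11.65, 11.80 and 11.90 on the PMCA2 knockdown arrays, against 9.11, 9.17 and 9.27 on the HER2 knockdown arrays and 12.60, 12.62 and 12.70 on the control arrays. The 3 groups did not overlap, and S100P was 6.11-fold higher in the PMCA2 arrays (log2 2.61, SE 0.046, limma adjusted p = 2.26e-25). S100A8 and S100A9, the subunits of calprotectin, were 2.95-fold and 1.92-fold higher, S100A12 5.35-fold and S100A7 (psoriasin) 5.32-fold. S100A8 read 13.32, 13.42 and 13.62 with PMCA2 knocked down, against 11.74, 11.84 and 12.14 with HER2 knocked down and 12.15, 12.23 and 12.41 in control. S100A3, S100A13, S100A16, S100A4, S100A14 and S100A11 were higher by log2 0.91, 0.69, 0.69, 0.40, 0.36 and 0.12. For S100A13 a further probe had the opposite sign, and S100A11 did not pass with only the 12 arrays of the 2 knockdowns in the fit (limma adjusted p = 0.077), on either chip alone, nor without replicate 2, 3 or 5 of the PMCA2 knockdown or replicate 1, 2, 4 or 5 of the HER2 knockdown, where it lay between log2 0.099 and 0.12. S100A6 (calcyclin) went the other way, at 9.16, 9.26 and 9.31 in the PMCA2 knockdown against 9.75, 10.02 and 10.18 in the HER2 knockdown, both far below control at 13.30, 13.35 and 13.54. S100A5 had -0.19 and S100A10, the partner of annexin A2, -0.033, neither of which passed.

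**Figure D2:**
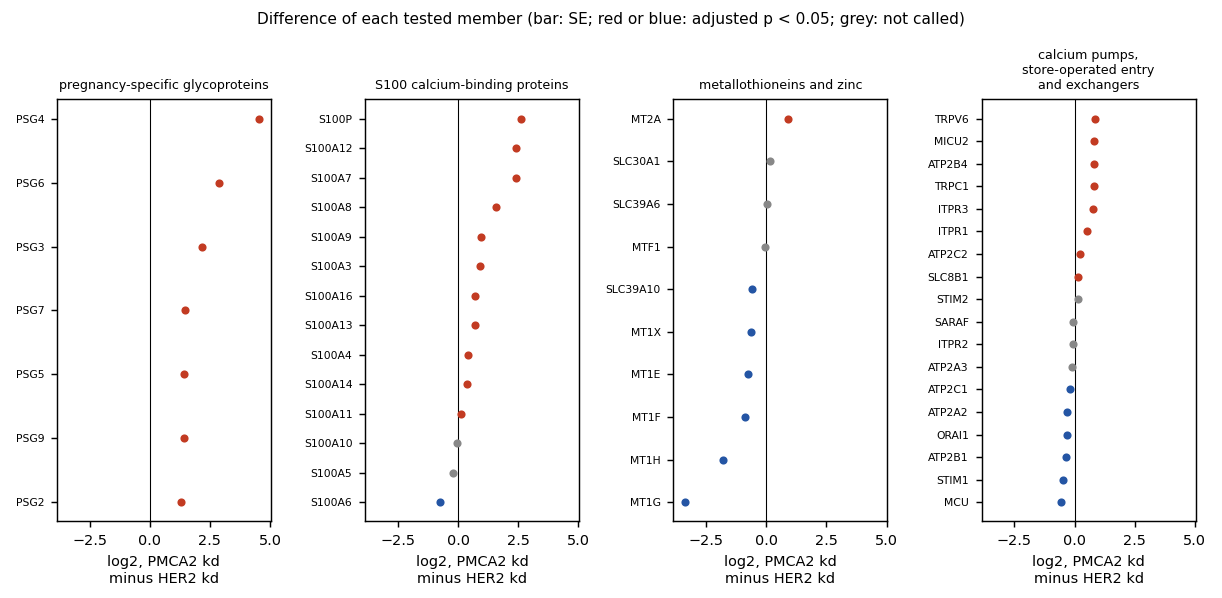
Differences in log2 intensity, PMCA2 minus HER2 knockdown, of each tested member of the pregnancy-specific glycoproteins, the S100 proteins, the metallothioneins with zinc transporters, and the calcium pumps and channels; bars give the SE and are mostly shorter than the points. The 7 pregnancy-specific glycoproteins lie right of 0, while 6 of the 10 genes of the metallothionein panel are called lower.

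Metallothioneins, small cysteine-rich proteins that bind zinc and copper, went mostly the other way. Of 10 tested genes of this family and of zinc transport, 6 were lower and 1 higher, with a median of -0.62 (-0.60 on chip 1, -0.65 on chip 2). MT1G read 4.33, 4.41 and 4.58 on the PMCA2 knockdown arrays, against 7.62, 7.81 and 7.97 on the HER2 knockdown arrays and 5.10, 5.21 and 5.33 on the control arrays. It was below the floor on all PMCA2 knockdown arrays and at least 8.92-fold lower there than in the HER2 knockdown, which stood above control. MT1H, below the floor on all PMCA2 knockdown and all control arrays, read 4.19, 4.26 and 4.51 in the PMCA2 knockdown against 5.81, 6.05 and 6.44 in the HER2 knockdown, at least 2.72-fold lower. MT1F, MT1E and MT1X were lower by log2 -0.88, -0.75 and -0.65. MT2A alone was higher, at 9.64, 9.77 and 9.85 in the PMCA2 knockdown against 8.71, 8.88 and 8.99 in the HER2 knockdown and 10.36, 10.45 and 10.59 in control, 1.85-fold. The zinc importer SLC39A10 was 1.52-fold lower. Probes of MT1 genes may read each other's transcripts. MTF1, the zinc sensor that drives this family, did not pass (log2 -0.041, SE 0.071, limma adjusted p = 0.661).

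The 250 bases before the start of MT1H (chr16:56669564-56669813), MT1X (chr16:56682220-56682469) and MT2A (chr16:56608334-56608583), all on the plus strand (RefSeq, build GRCh38.p14), are shown because family members of opposite direction can be compared. Capitals mark the core letters of the metal response element bound by MTF1, TGCACNC or TGCGCNC on either strand. MT1H holds 8 matches, MT1X 4 and MT2A 7, so the count in MT2A, the higher gene, lies between those of its lower neighbours. At least 1 match is in 24.8% of 35116 promoter windows of this length and at least 4 in 0.37%. The matches say nothing of MTF1 binding here.
MT1H: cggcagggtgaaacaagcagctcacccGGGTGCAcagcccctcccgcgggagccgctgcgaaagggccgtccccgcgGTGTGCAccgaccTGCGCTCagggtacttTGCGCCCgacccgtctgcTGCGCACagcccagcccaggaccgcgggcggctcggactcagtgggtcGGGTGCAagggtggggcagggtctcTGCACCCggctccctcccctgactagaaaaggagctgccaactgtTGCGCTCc
MT1X: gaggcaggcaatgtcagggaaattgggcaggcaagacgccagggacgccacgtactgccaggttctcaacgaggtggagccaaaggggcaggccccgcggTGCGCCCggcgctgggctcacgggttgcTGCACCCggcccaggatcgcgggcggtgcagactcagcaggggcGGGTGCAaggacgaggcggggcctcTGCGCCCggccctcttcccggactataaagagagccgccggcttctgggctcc
MT2A: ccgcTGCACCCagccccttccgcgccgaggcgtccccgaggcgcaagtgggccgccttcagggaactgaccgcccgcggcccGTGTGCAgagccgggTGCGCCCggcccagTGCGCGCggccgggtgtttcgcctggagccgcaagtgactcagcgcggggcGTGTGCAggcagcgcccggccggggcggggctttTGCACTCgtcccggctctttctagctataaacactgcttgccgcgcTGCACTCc

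Several of the largest differences belong to no list. Lower in the PMCA2 knockdown, GTSF1, a germline factor of the piRNA pathway, read 4.35, 4.42 and 4.47 on the PMCA2 knockdown arrays, against 10.10, 10.38 and 10.45 on the HER2 knockdown arrays and 9.92, 10.01 and 10.15 on the control arrays. It was below the floor on all 6 PMCA2 knockdown arrays, near its control level in the HER2 knockdown, and at least 50.8-fold lower. RBP7, a cellular retinol-binding protein, read 4.33, 4.51 and 4.82 on the PMCA2 knockdown arrays, against 9.54, 9.66 and 9.88 on the HER2 knockdown arrays and 4.29, 4.45 and 4.63 on the control arrays. Here control and the PMCA2 knockdown were both at the floor and the HER2 knockdown stood alone, so RBP7 was at least 32-fold lower in the PMCA2 knockdown. TMSB4X, thymosin beta 4, which holds actin monomers, read 8.38, 8.54 and 8.58 on the PMCA2 knockdown arrays, against 11.63, 11.76 and 11.81 on the HER2 knockdown arrays and 11.02, 11.09 and 11.10 on the control arrays and was 9.38-fold lower. MGP, an inhibitor of calcification, was 8.16-fold lower, at 7.67, 7.81 and 7.98 in the PMCA2 knockdown against 10.73, 10.83 and 11.04 in the HER2 knockdown. SOCS2, a brake on growth hormone and cytokine signalling, read 6.13, 6.33 and 6.45 with PMCA2 knocked down, against 9.10, 9.22 and 9.28 with HER2 knocked down and 7.30, 7.49 and 7.52 in control, so the 3 groups did not overlap and the PMCA2 knockdown was 7.41-fold below the HER2 knockdown. The helicase-like SLFN11, known for raising sensitivity to DNA-damaging drugs, was 7.2-fold lower. The LIM protein CRIP2 was 6.51-fold lower.

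Among the same 15, MGARP, a mitochondrial protein, was 9.16-fold lower and below the floor on all control arrays. COX7B2, a cytochrome c oxidase subunit of testis, and TCEAL8 were below the floor on all PMCA2 knockdown arrays and at least 6.14-fold and 6.95-fold lower. NCCRP1 had log2 -3.59, with 4 of 6 PMCA2 knockdown arrays above the floor and a further probe at -1.78, and the matrix protein MATN2 8.07-fold lower with a further probe at -1.26. DKK3, a secreted protein of the Dickkopf family, was 8.22-fold lower.

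On the higher side, UGT1A7, a UDP-glucuronosyltransferase that makes drugs and steroids water-soluble, read 10.03, 10.13 and 10.25 on the PMCA2 knockdown arrays, against 5.64, 5.98 and 6.16 on the HER2 knockdown arrays and 8.62, 8.85 and 8.99 on the control arrays, 18.4-fold higher. UGT1A10 was higher by log2 3.5, with 3 of 6 HER2 knockdown arrays above the floor. The UGT1A enzymes share all but their first exon, so their probes may read each other's transcripts. MME (neprilysin), a membrane peptidase, was higher by log2 3.61 and below the floor on all control arrays. DPYSL2, a regulator of microtubules, was 10.5-fold higher and the keratin KRT23 10.4-fold. PPM1H, a protein phosphatase, read 7.97, 8.15 and 8.33 with PMCA2 knocked down, against 4.38, 4.68 and 5.00 with HER2 knocked down and 8.62, 8.84 and 8.95 in control. The PMCA2 knockdown was near control and the HER2 knockdown near the floor, with a difference of log2 3.43. The cancer-testis gene CT45A3 was at least 8.76-fold higher, with copies of the family that its probe may also read. CSF1R, the receptor of the macrophage growth factor M-CSF, was 5.04-fold higher (10.23, 10.27 and 10.33 in the PMCA2 knockdown, against 7.66, 7.99 and 8.02 in the HER2 knockdown and 9.50, 9.68 and 9.82 in control). Of 7 tested immune markers 2 were higher, CSF1R and the macrophage protein CD68 (log2 0.57, further probes at 0.39 and 1.25), and 1 lower, the T cell protein CD2 (log2 -0.34). The call of CD2 was lost on chip 2 alone and without replicate 1, 2 or 5 of the PMCA2 knockdown or replicate 2 or 6 of the HER2 knockdown (log2 -0.31 to -0.28). PTPRC, CD3E and TYROBP were below the floor on all arrays of both knockdowns. CD14, another immune marker, was above it on all 6 arrays of each knockdown and of the control. Its means were 5.64 in the PMCA2 knockdown, 5.52 in the HER2 knockdown and 4.96 in control.

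**Figure D3:**
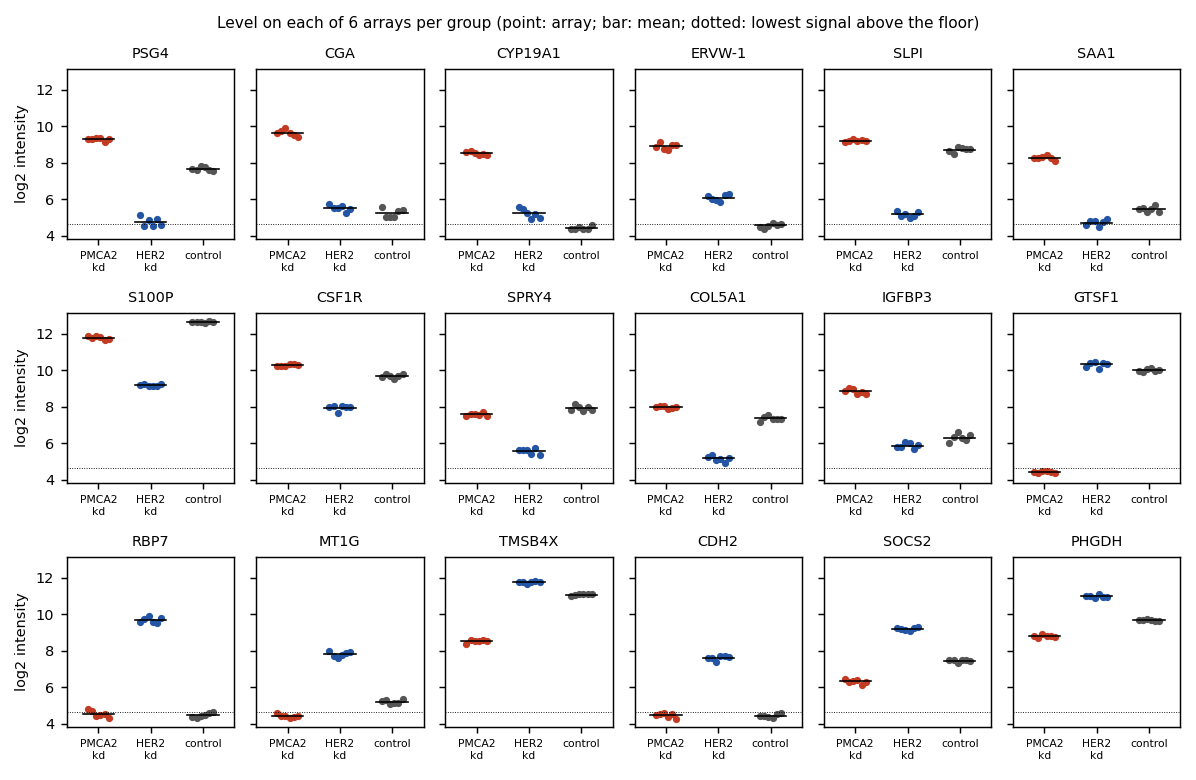
Log2 intensity of 18 genes on each of 6 arrays in the PMCA2 knockdown, the HER2 knockdown and the control; points are arrays, bars the group means, and the dotted line the lowest signal of probes above the floor. The 2 knockdowns do not overlap in any of the 18 panels; control lies near the PMCA2 knockdown in SLPI, RBP7 and CDH2, near the HER2 knockdown in CGA and GTSF1, and between them in PSG4.

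The machinery that moves calcium was compared because PMCA2 is a calcium pump. Of 18 tested pumps, channels and exchangers, 8 were higher and 6 lower, with a median of 0.04 (0.07 on chip 1 and on chip 2). That is 77.8% called, against 55.2% over all genes. Besides ATP2B4, the higher genes included TRPV6, a calcium entry channel of epithelia, by 1.82-fold (a further probe had the opposite sign), the inositol trisphosphate receptor ITPR3 by 1.72-fold and MICU2, a gatekeeper of the mitochondrial uniporter, by 1.76-fold. The lower genes included MCU, the pore of that uniporter, by 1.48-fold, STIM1, the sensor of calcium stores, by 1.42-fold, the ER pump ATP2A2 by 1.23-fold and the Golgi pump ATP2C1 by 1.16-fold. For ITPR3 both knockdowns lay well below control, at 8.11, 8.23 and 8.29 with PMCA2 knocked down, against 7.12, 7.45 and 7.70 with HER2 knocked down and 10.46, 10.61 and 10.69 in control. Downstream of calcium, 1 of 17 tested genes of calmodulin, calcineurin, the CaM kinases and NFAT was higher and 7 were lower (median -0.06). That is 47.1% called, below the 55.2% over all genes. The kinases CAMK2D and CAMK1D changed in opposite directions. CAMK2D, a CaM kinase II subunit, read 6.24, 6.63 and 6.71 on the PMCA2 knockdown arrays, against 4.30, 4.37 and 4.54 on the HER2 knockdown arrays and 5.76, 5.89 and 5.98 on the control arrays, at least 3.68-fold higher. CAMK1D read 4.46, 4.55 and 4.93 on the PMCA2 knockdown arrays, against 6.71, 6.89 and 7.0 on the HER2 knockdown arrays and 4.38, 4.59 and 4.85 on the control arrays, at least 4.55-fold lower. PPP3CB, a catalytic subunit of calcineurin, and its regulators RCAN3 and RCAN1 were lower by log2 -0.52, -0.93 and -0.44.

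Genes that report signalling below HER2 did not move one way. Of 22 tested ERK feedback and immediate early genes, 8 were higher and 6 lower (median -0.03, 63.6% called against 55.2% over all genes). The Sprouty proteins, which restrain ERK signalling and are induced by it, split: SPRY4 read 7.48, 7.57 and 7.71 with PMCA2 knocked down, against 5.36, 5.63 and 5.74 with HER2 knocked down and 7.78, 7.90 and 8.15 in control, 4.03-fold higher with a further probe at log2 0.83, and SPRY1 read 7.08, 7.14 and 7.28 with PMCA2 knocked down, against 8.32, 8.40 and 8.47 with HER2 knocked down and 8.73, 8.90 and 8.94 in control, 2.36-fold lower. The ERK phosphatases split as well, with DUSP5 3.21-fold higher and DUSP4 at least 1.96-fold lower. The ERK-induced factor ETV5 was at least 2.25-fold higher and was below the floor on all HER2 knockdown and control arrays, while the immediate early gene FOS read 7.42, 7.52 and 7.63 with PMCA2 knocked down, against 9.37, 9.50 and 9.62 with HER2 knocked down and 4.66, 4.89 and 5.18 in control, 3.94-fold lower. JUNB had 0.64 and PHLDA1 -0.63. Of 18 tested genes of PI3K, insulin signalling and FOXO, 8 were higher and 5 lower (median 0.11, 72.2% called). FOXO4, a transcription factor that AKT keeps out of the nucleus, read 10.24, 10.32 and 10.36 on the PMCA2 knockdown arrays, against 6.85, 7.30 and 7.34 on the HER2 knockdown arrays and 5.79, 5.95 and 6.14 on the control arrays, 8.54-fold higher. The insulin receptor substrate IRS2 had log2 1.54, but only 3 of 6 arrays of the HER2 knockdown exceeded the floor, so the size is uncertain. The phosphatase INPP4B was 1.43-fold higher. TXNIP, which lowers glucose uptake, and KLF6 were lower by log2 -0.75 and -0.62.

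Interferon-stimulated genes were higher in 19 of 42 tested members and lower in 7 (median 0.12, 61.9% called against 55.2% over all genes). GBP2, a guanylate-binding protein, read 8.84, 8.91 and 9.18 on the PMCA2 knockdown arrays, against 6.04, 6.27 and 6.44 on the HER2 knockdown arrays and 5.92, 6.05 and 6.14 on the control arrays, 6.48-fold higher, and the nuclear body protein SP110 read 6.31, 6.6 and 6.80 with PMCA2 knocked down, against 4.47, 4.68 and 4.88 with HER2 knocked down and 7.63, 7.74 and 7.90 in control. For SP110, 3 of 6 arrays of the HER2 knockdown exceeded the floor, so its log2 of 1.89 is uncertain in size. PLSCR1 was at least 2.41-fold and LGALS3BP 1.84-fold higher. The membrane proteins IFITM3 and IFITM2, which block virus entry, were lower by log2 -0.98 and -0.59, and their near-identical sequences may be read by the same probes. IFITM3 read 12.23, 12.30 and 12.47 in the PMCA2 knockdown, against 13.20, 13.33 and 13.39 in the HER2 knockdown and 8.81, 8.87 and 9.0 in control, so both knockdowns stood far above control.

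Among markers of other cell types, basal, mesenchymal and fibroblast genes went both ways, and most endothelial genes were higher. Of 8 tested basal and mesenchymal markers, 2 were higher and 4 lower (median -0.15, 75% called against 55.2% over all genes). CDH2 (N-cadherin) read 4.26, 4.51 and 4.58 on the PMCA2 knockdown arrays, against 7.39, 7.63 and 7.73 on the HER2 knockdown arrays and 4.31, 4.43 and 4.61 on the control arrays, at least 7.78-fold lower in the PMCA2 knockdown. Control was at the floor as well. TAGLN, a smooth muscle actin-binding protein, was 3.17-fold lower, and VIM (vimentin) 1.22-fold lower, while ACTA2 was higher by log2 0.21 and fibronectin, FN1, at least 1.5-fold higher. ZEB1 and KRT14 were below the floor on all arrays of both knockdowns. Of 7 tested fibroblast markers, 3 were higher and 2 lower (71.4% called). The collagen gene COL5A1 read 7.87, 7.97 and 8.04 with PMCA2 knocked down, against 4.94, 5.15 and 5.37 with HER2 knocked down and 7.19, 7.34 and 7.53 in control, 6.98-fold higher, whereas COL3A1 was 2.98-fold lower and the proteoglycan BGN 3.33-fold lower. LUM and PDGFRA were below the floor in both groups. Of 5 tested endothelial markers, 4 were higher and 1 lower, with a median of 0.67 (0.63 on chip 1, 0.89 on chip 2). ENG (endoglin), a TGF-beta coreceptor, was 2.6-fold higher and CDH5 1.86-fold, TEK and ESAM were at least 1.47-fold and 1.35-fold higher, and VWF was 1.18-fold lower. PECAM1 was below the floor on all arrays of both knockdowns.

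The insulin-like growth factor binding proteins, which hold IGFs in the extracellular fluid, divided. IGFBP3 read 8.71, 8.82 and 9.05 on the PMCA2 knockdown arrays, against 5.70, 5.84 and 6.07 on the HER2 knockdown arrays and 6.02, 6.30 and 6.6 on the control arrays, 7.88-fold higher. IGFBP5 was at least 2.48-fold lower, in both knockdowns far below control (4.36, 4.53 and 4.65 with PMCA2 knocked down, against 5.86, 5.97 and 6.03 with HER2 knocked down and 11.91, 12.03 and 12.14 in control). IGFBP2 was 2.01-fold lower. IGF2BP3, which binds RNA and is made mainly before birth, and IGF2R were higher by log2 0.54 and 0.33. In all, 4 of 8 tested members of this family were higher and 2 lower. In the Notch pathway, 5 of 14 tested genes were higher and 6 lower (median -0.12, 78.6% called against 55.2% over all genes). The receptors NOTCH3 and NOTCH2 differed in opposite directions, 1.67-fold higher and 1.92-fold lower. The ligands JAG2 and JAG1 were higher by 0.70 and 0.55, and DLL3 and the target gene HES1 lower by -0.63 and -0.65.

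**Figure D4:**
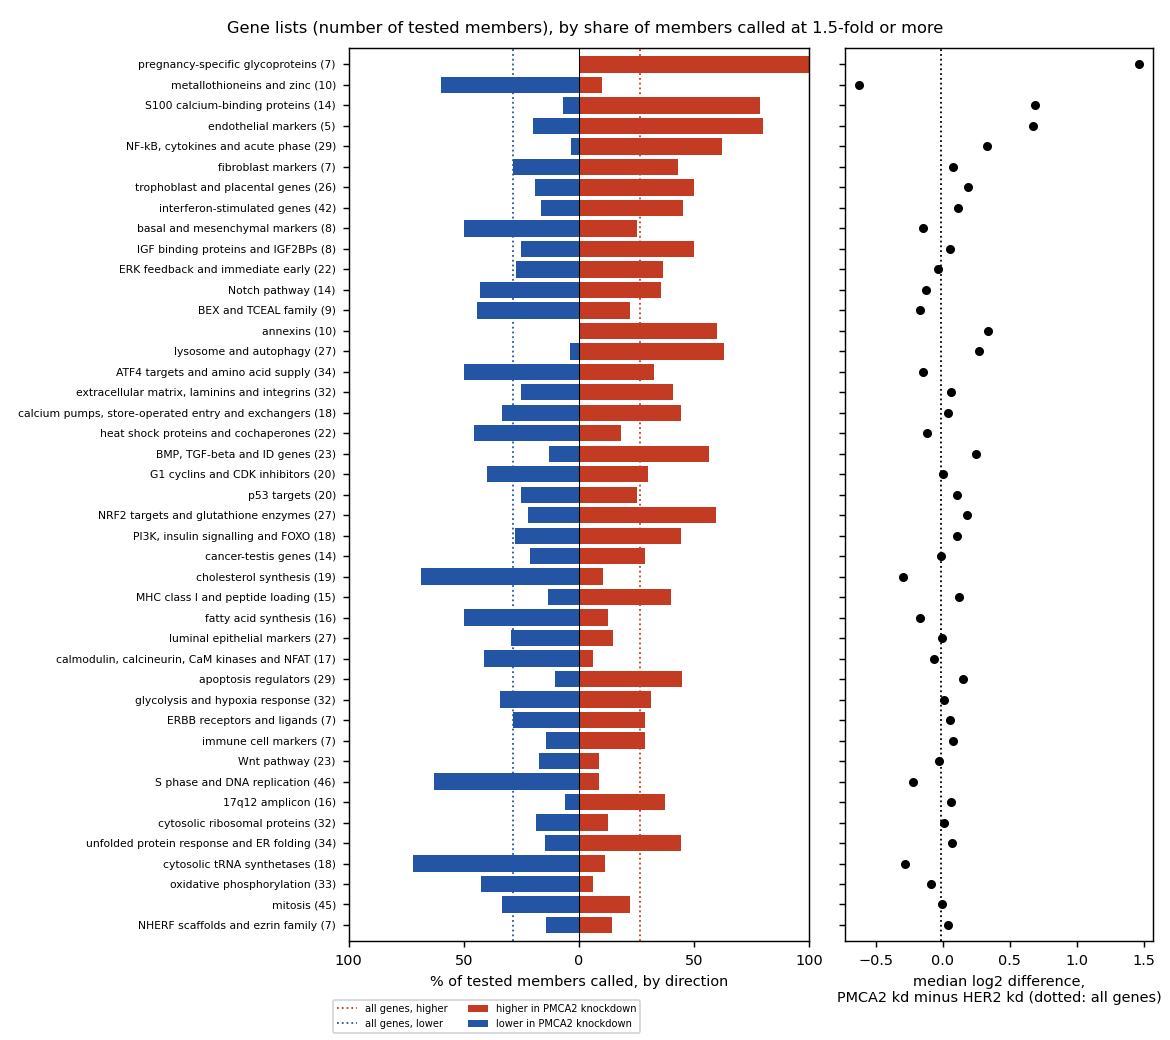
For 43 gene lists, the left panel gives the percentage of tested members called higher (red, to the right) and lower (blue, to the left) in the PMCA2 than in the HER2 knockdown, and the right panel the median difference in log2; dotted lines give the same over all genes, and numbers in brackets are tested members. Pregnancy-specific glycoproteins, S100 proteins and lysosomal genes lean right, and cholesterol synthesis, S phase and tRNA synthetases lean left.

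The amino acid, cell cycle, lipid, lysosome, annexin, NRF2, heat shock, adhesion, BMP, apoptosis, luminal, BEX and TCEAL, glycolysis and p53 groups were described further after their values were seen. Of 34 tested ATF4 targets and amino acid genes, 11 were higher and 17 lower (median -0.15). The largest difference among them was that of GDF15, given above (log2 3.46). PHGDH, the first enzyme of serine synthesis, read 8.71, 8.80 and 8.93 on the PMCA2 knockdown arrays, against 10.88, 10.97 and 11.11 on the HER2 knockdown arrays and 9.63, 9.67 and 9.71 on the control arrays, 4.53-fold lower. PSAT1, the next enzyme of that route, was 1.98-fold lower, CTH, which makes cysteine from cystathionine, 3.97-fold, and the mitochondrial enzyme PCK2 2.11-fold. Among the higher members, the amino acid transporters SLC7A1 and SLC1A5 and the factor CEBPB had log2 0.51, 0.42 and 0.57. Cytosolic tRNA synthetases, several of which ATF4 also drives, were lower in 13 of 18 tested members and higher in 2 (median -0.29), led by MARS1 and AARS1 at -0.59 and -0.58. Genes of S phase were lower in 29 of 46 and higher in 4 (median -0.22). UNG, a uracil glycosylase, read 10.02, 10.26 and 10.43 with PMCA2 knocked down, against 11.28, 11.32 and 11.48 with HER2 knocked down and 10.40, 10.46 and 10.52 in control, 2.14-fold lower. The primase PRIM1 was 1.89-fold lower, and the helicase factors MCM10 and MCM7 had -0.67 and -0.41. RRM2, a ribonucleotide reductase subunit, was higher (0.36). Mitosis genes, which work later in the cycle, had 10 higher and 15 lower of 45 (median -0.0045). The cyclin-dependent kinase inhibitors CDKN2B and CDKN1A were 3.48-fold and 3.21-fold higher, and CDK2, CDK4 and the cyclin CCND3 were lower by -0.60, -0.43 and -0.85.

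Cholesterol synthesis was lower in 13 of 19 tested genes and higher in 2 (median -0.30). HMGCS1, the enzyme that makes HMG-CoA, read 9.29, 9.58 and 9.66 with PMCA2 knocked down, against 10.19, 10.31 and 10.41 with HER2 knocked down and 8.72, 8.75 and 8.88 in control, 1.69-fold lower. PMVK and IDI1, later enzymes of the mevalonate route, had -0.76 and -0.49, while TM7SF2, a sterol reductase, was higher at 0.73. Fatty acid synthesis followed with 8 of 16 lower and 2 higher (median -0.17). Its examples are ACACB, a mitochondrial acetyl-CoA carboxylase, at -1.36 and the desaturases FADS1 and SCD at -0.85 and -0.46. Lysosome and autophagy genes were higher in 17 of 27 and lower in 1 (median 0.27). GABARAPL1, a component of the autophagosome membrane, read 6.89, 7.16 and 7.35 with PMCA2 knocked down, against 5.09, 5.27 and 5.59 with HER2 knocked down and 7.88, 7.98 and 8.08 in control, 3.62-fold higher. ULK1, the kinase that starts autophagy, was 2.34-fold higher, WIPI1 2.55-fold and the lysosomal enzyme GLA 1.97-fold, against a lower cathepsin, CTSZ, at -0.63. Annexins, calcium-dependent binders of membranes, were higher in 6 of 10 and lower in 0 (median 0.34), with ANXA8 3.31-fold (log2 1.73, a further probe at 0.25) and ANXA1 1.77-fold higher. NRF2 targets and glutathione enzymes were higher in 16 of 27 and lower in 6. AKR1B10, an aldo-keto reductase, was 4.25-fold higher, and HMOX1, which breaks down heme, 3.79-fold, against GSTM3, a glutathione transferase, at -1.10. Heat shock proteins were lower in 10 of 22 and higher in 4. HSPB8 and BAG3, partners in chaperone-assisted autophagy, were 3.49-fold and 3.16-fold higher, and CRYAB, HSPB1 and the HSP90 cochaperone FKBP4 had -0.80, -0.76 and -0.69.

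Among genes of adhesion, 13 of 32 tested matrix, laminin and integrin genes were higher and 8 lower. PLOD2, a lysyl hydroxylase of collagen, was 8.59-fold higher with further probes at 0.057 and 0.63. The integrins ITGB4 and ITGA5 were 4.25-fold and 3.68-fold higher, the collagen COL4A1 at least 2.73-fold higher, and the laminins LAMB2 and LAMC1 had -0.49 and -0.40. The BMP and TGF-beta list had 13 higher and 3 lower of 23, with the coreceptor TGFBR3 at 1.25, the inhibitory SMAD6 at 0.80 and the target ID1 at 0.70, against the pseudoreceptor BAMBI at -0.66. Apoptosis regulators had 13 higher and 3 lower of 29, with the BH3-only gene PMAIP1 at 1.37 (a further probe at 0.39) and CFLAR, an inhibitor of caspase-8, at 1.07. Luminal markers had 4 higher and 8 lower of 27. Their differences ran from log2 -1.05 to 1.85, the highest in a gene near the floor in the HER2 knockdown. KRT19 and the epithelial factor ELF3 had 0.96 and 0.86, and KRT18 and KRT8, which pair in luminal filaments, -0.95 (a further probe at -0.16) and -0.46. FOXA1 read 4.87, 4.99 and 5.13 on the PMCA2 knockdown arrays, against 5.89, 6.02 and 6.27 on the HER2 knockdown arrays and 11.24, 11.34 and 11.47 on the control arrays, far below control in both knockdowns and 2.07-fold lower in the PMCA2 knockdown. The BEX and TCEAL genes of the X chromosome had 2 higher and 4 lower of 9, TCEAL8 and TCEAL3 (log2 -1.09) among the lower. In glycolysis and hypoxia, 10 were higher and 11 lower of 32, with PFKFB3, a driver of glycolysis, at 1.52 (a further probe at 0.59) and HIF1A, the hypoxia factor, at 1.30, and the p53 targets had 5 higher and 5 lower of 20.

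The remaining lists are given by their counts. Of 33 oxidative phosphorylation genes 2 were higher and 14 lower, of 34 genes of the unfolded protein response 15 were higher and 5 lower, of 15 of MHC class I and peptide loading 6 were higher and 2 lower, and of 32 cytosolic ribosomal proteins 4 were higher and 6 lower. Of 23 Wnt genes 2 were higher and 4 lower, of 14 cancer-testis genes 4 and 3, of 20 G1 cyclins and inhibitors 6 and 8, and of 7 NHERF scaffolds and ezrin family genes 1 and 1. The members and lists share these arrays and, for near-identical genes, probes, so their counts are descriptions beside the background of 26.4% higher and 28.8% lower.

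Genes of some chromosomes leaned one way as a whole, a pattern that was looked at after the data were seen. Of 385 tested genes on chromosome 15, 64.4% were called higher and 7.01% lower in the PMCA2 knockdown, against 26.4% and 28.8% over all genes. Their median difference was 0.32 in log2, which is 1.25-fold (0.29 on chip 1, 0.32 on chip 2); without background correction it was 0.16. Chromosome 13 had 50.9% of 220 genes higher and 7.27% lower (median 0.21, or 0.094 without background correction). Chromosomes 12, 10 and 3 leaned the other way, with 45.9% of 663, 43.5% of 478 and 42.1% of 694 genes lower and medians of -0.14, -0.14 and -0.092. Taking each array's median deviation over the genes of chromosome 15 from their mean in the 2 knockdowns, the PMCA2 knockdown arrays gave 0.15, 0.16 and 0.18 (lowest, median and highest) and the HER2 knockdown arrays -0.18, -0.16 and -0.15. On chromosome 12 the PMCA2 knockdown arrays gave -0.10, -0.084 and -0.068, against 0.073, 0.083 and 0.086 on the HER2 knockdown arrays. The groups did not overlap on any of these 5 chromosomes, which were picked for their lean, so no test is given. Nor did they overlap on chromosomes 11, 14, 20 and 21, whose medians were -0.039, 0.014, 0.036 and -0.024. Set against control, the median over chromosome 15 was 0.0095 in the PMCA2 knockdown and -0.23 in the HER2 knockdown. On chromosome 13 these medians were 0.076 and -0.12, on chromosome 10 they were 0.021 and 0.15, and on chromosome 12 they were -0.12 and 0.032. On some other chromosomes both knockdowns differed from control alike. In the same order, the medians were -0.23 and -0.20 on chromosome 21, and 0.19 and 0.20 on chromosome 8. They were -0.16 and -0.15 on chromosome 22, -0.15 and -0.14 on chromosome 14, and -0.15 and -0.18 on chromosome 20.

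The lean ran along chromosomes 13 and 15 and along stretches of the other 3. In blocks of 40 neighbouring tested genes, all 10 blocks of chromosome 15 had a median above 0.1, from 0.19 to 0.41, and all 6 blocks of chromosome 13, from 0.12 to 0.27. On chromosome 10, 9 of 12 blocks lay below -0.1, on chromosome 12 it was 9 of 17, and on chromosome 3 it was 7 of 17. Of 251 blocks on the other 18 chromosomes, 200 lay within 0.1 of 0, 16 above and 35 below. They ranged from -0.34 to 0.35, so leaning stretches were not confined to the chromosomes picked. Beside the median of 0.32 on chromosome 15, CYP19A1 of that chromosome had a difference of log2 3.30 and NRG4 one of 0.26. How far the lean enters the difference of a single gene was not tested. Taking each gene's difference minus the median of its chromosome was a choice added after the data were seen. It moved 17 of 43 list medians by more than the spread between arrays, with the sign kept. Medians that changed sign are not among the 17, and each had been smaller than that spread. Of these, the ERBB list gave -0.059 in place of 0.053 and the ERK feedback list 0.017 in place of -0.035. The mitosis list gave 0.014 in place of -0.0045, and luminal markers 0.0076 in place of -0.0062. Among lists that kept their sign, calcium pumps and channels gave 0.12 in place of 0.038. The calmodulin list gave -0.037 in place of -0.064, and interferon-stimulated genes 0.18 in place of 0.12. The ATF4 list gave -0.096 in place of -0.15, basal markers -0.033 in place of -0.15, cytokines 0.47 in place of 0.33 and fibroblast markers 0.22 in place of 0.08.

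**Figure D5:**
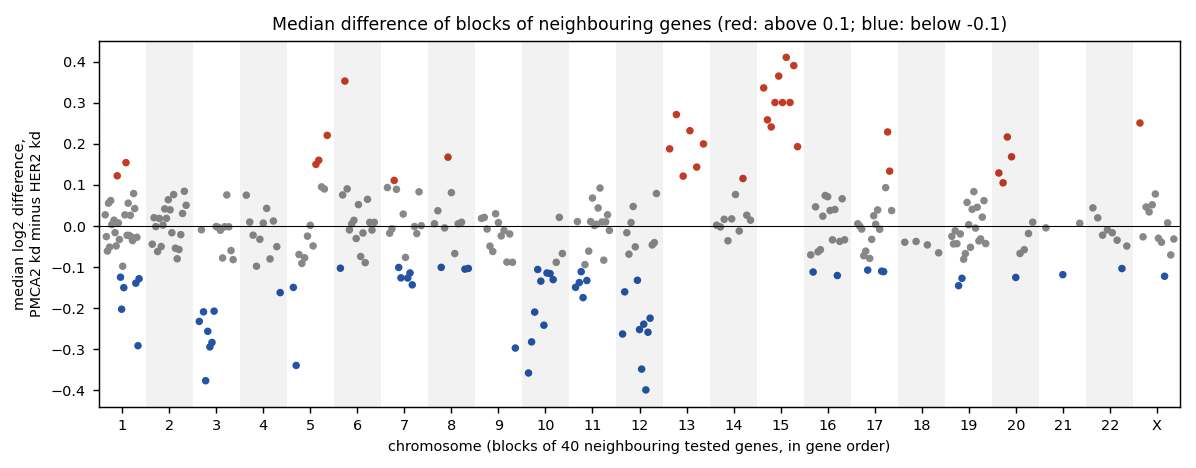
Each point is the median difference in log2 intensity, PMCA2 minus HER2 knockdown, of a block of 40 neighbouring tested genes, in gene order within each chromosome. All blocks of chromosomes 13 and 15 lie above 0.1, and most blocks of chromosome 10 and several of chromosomes 3 and 12 lie below -0.1. Blocks of the other chromosomes reach -0.34 and 0.35.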

How the data were processed

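Total RNA of SKBR3 cells was labelled as biotinylated cRNA and read on Illumina arrays, per the labels' protocols. The values are probe intensities on a linear scale, deposited by the authors as a series matrix of 24 arrays. The sources used here name neither the software nor the normalization. The sorted intensities differ between arrays by no more than 0.406%, and the lowest is 81.6, so they had been normalized between arrays with the background left in. A deposited table of non-normalized signals was not used, because its 24 signal columns match no label. Depth has no meaning for arrays, whose number (6 per group) limits the precision.

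Of 47323 probes, 30113 had 1 gene symbol, 8 several and 17202 none listed, and 30074 matched the RefSeq gene table. Background was corrected with normexp against 437 olfactory receptor probes (offset 16), followed by quantile normalization and log2. Probes over an intensity of 106, the 95th percentile of those probes, on at least 6 arrays were kept (22586), and the probe with the highest mean stood for each gene. A limma fit over 4 groups gave the contrast PMCA2 minus HER2 knockdown, with Benjamini-Hochberg adjustment over 12469 genes (R 4.3.3, limma 3.58.1). The fit was tested on simulated data. Sex-linked marker genes are not listed.

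A fold is given as a bound where the dimmer group was above the floor on 0 arrays or averaged below 4.65, the lowest log2 signal of probes above the floor. Each dim array then counts at 4.65 or its own value, whichever is higher. Of the genes with such a bound, the following were above the floor on some of the 6 dimmer arrays, given in brackets: CAMK1D (1), CGB5 (2), CT45A3 (1), DUSP4 (3), ESAM (2), FN1 (2), IGFBP5 (1), LCN2 (1), NRG4 (2), PAGE4 (3), PI3 (3), RBP7 (2), TEK (2). Fitted differences of IRS2, MME, NCCRP1, PGF, PLOD2, PPM1H, PSG4, REL, SAA1, SP110, UGT1A10, MT1E and MT1F are likewise uncertain in size, since the dimmer group was above the floor on 3 to 5 arrays only. Named genes are the targets, the 15 largest called differences in each direction that were above the floor on 6 arrays of the brighter group and had the same sign on both chips, up to 4 members of a list with the smallest p in each direction, and tested members of lists of at most 15. CGB5, CYP11A1, GCM1, IL1B, IL6, PGF and RELA fall outside this rule. The members and lists were chosen with earlier results of these data known. Of 196 named genes that were called, 63 had further probes above the floor. These had the opposite sign for ERBB3, S100A13 and TRPV6. They gave a difference over 1.5 times smaller for 32, namely ANXA8, ATP2C1, CAMK1D, CT45A3, CTH, CYP19A1, FN1, HIF1A, ID1, IGFBP5, IL32, KRT18, MATN2, MCM7, NCCRP1, PCK2, PFKFB3, PHLDA1, PLOD2, PMAIP1, PSG2, PSG4, PSG6, RCAN1, REL, S100A13, SAA1, SP110, SPRY4, TCEAL8, TRPV6 and UNG. Alternatives covered the background, the normalization, the filter, the arrays in the fit, chip, replicate number, probes and each array left out.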

Additional observations from a re-analysis of the deposited data

Results flagged for a closer look

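In 202 named genes and 3 groups of 6 arrays, 43 of 606 sets of values had 1 array farther from its nearest neighbour than Dixon's 95% critical value for 6 samples allows, and chance gives about 1 in 20. Values are log2 intensities, each with that of the nearest other array. Replicate 3 of the HER2 knockdown held 11 of them: ACTA2 7.86 (lowest, next 8.01), CSF1R 7.66 (lowest, next 7.99), FOXO4 6.85 (lowest, next 7.18), IGF2R 9.47 (lowest, next 9.72), KRT19 12.29 (highest, next 12.17), MGARP 10.60 (highest, next 10.43), NHERF1 11.17 (lowest, next 11.27), TAGLN 8.22 (lowest, next 8.48), TMSB4X 11.63 (lowest, next 11.76), ULK1 8.04 (lowest, next 8.45), WIPI1 7.0 (highest, next 6.61). Without this array the fit called 6816 genes, and each of these genes that was called was called as before. Replicate 3 of the PMCA2 knockdown held 7: CDK4 10.76 (highest, next 10.64), IL1B 5.43 (lowest, next 5.73), INPP4B 6.88 (lowest, next 7.01), LAMC1 11.74 (lowest, next 11.91), PFKFB3 7.63 (lowest, next 7.79), PHLDA1 5.71 (lowest, next 5.99), S100A5 4.47 (lowest, next 4.85).

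Among the other arrays of the PMCA2 knockdown, AKR1B10 9.58 (highest, next 9.37, replicate 2), CAMK1D 4.93 (highest, next 4.6, replicate 4), ERRFI1 10.33 (lowest, next 10.61, replicate 5), MCM10 8.47 (highest, next 8.35, replicate 1), MCU 7.38 (lowest, next 7.57, replicate 1), MT1H 4.51 (highest, next 4.27, replicate 4), PSG4 9.16 (lowest, next 9.31, replicate 5), S100A3 5.61 (lowest, next 5.91, replicate 5), TMSB4X 8.38 (lowest, next 8.52, replicate 1) stood apart. Among the other arrays of the HER2 knockdown, PFKFB3 6.36 (highest, next 6.27, replicate 2), PPP3CB 8.98 (lowest, next 9.07, replicate 4), PSG2 4.35 (highest, next 4.27, replicate 4) stood apart. In control, ATP2A2 9.79 (lowest, next 10.05, replicate 1), CD2 4.57 (lowest, next 5.0, replicate 1), DUSP4 6.61 (highest, next 6.40, replicate 4), GCM1 5.19 (highest, next 4.64, replicate 3), GRB7 10.67 (lowest, next 10.76, replicate 2), IFITM2 10.15 (lowest, next 10.27, replicate 1), IGF2BP3 4.48 (highest, next 4.34, replicate 6), IL6 5.08 (highest, next 4.54, replicate 5), KRT19 13.64 (lowest, next 13.72, replicate 3), KRT8 12.55 (highest, next 12.40, replicate 2), NCCRP1 9.09 (lowest, next 9.18, replicate 5), PSG9 4.85 (highest, next 4.53, replicate 5), S100A12 4.55 (highest, next 4.33, replicate 2) stood apart.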

How the results depend on the processing

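Of the 6889 genes called, between 4940 (chip 1 alone) and 6862 (no further quantile normalization) were called in the same direction under the alternatives that kept all genes, and 8 in the opposite direction when all probes of a gene were averaged. The count of genes at least 2-fold higher was 146 without background correction and 210 with an offset of 50, against 360, and that of genes at least 2-fold lower was 61 and 103, against 216. By construction, uncorrected background or a larger offset reduces the log differences of dim probes. The medians of chromosomes 3, 10, 12, 13 and 15 shrank likewise, to -0.0478, -0.0579, -0.0598, 0.0941 and 0.158 without background correction, and kept their sign under every alternative. Leaving out 1 array at a time gave 6686 to 6816 calls, 3180 to 3233 higher, 3476 to 3583 lower, 355 to 362 at least 2-fold higher, 207 to 219 at least 2-fold lower, 528 to 551 calls among members of lists, and a difference of ERBB2 between -0.0817 and -0.0522. Same-numbered arrays of the 2 knockdowns did not deviate together (correlations of -0.0574 to 0.0583, 2 of 6 arrays closest to their own number), and the replicate block gave 6943 calls. Averaging all probes turned ERBB3 to 0.129 and S100A10 to 0.0359, and gave EGFR 0.201, which then passed. On chip 2 alone EGFR was -0.0301, MTF1 0.0452 and RELA -0.0486, and RELA lay between -0.0201 and 0.0554 with 1 array left out. Of these genes ERBB3 had been called, and EGFR, MTF1, RELA and S100A10 had not. ACTA2, VWF and S100A11 did not pass on either chip alone, and ATP2A2, ATP2B1, CD2, CGB5, NRG4, REL, S100A14, TFAP2C and VIM not on 1 of them. Probes near the floor limit what can be said of dim genes.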
